A study of Pleurotus tuoliensis with 2 samples.

Results

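In the edible mushroom *P. tuoliensis*, 6 unigenes (de novo assembled transcripts) were named carbonic anhydrase by their best Swiss-Prot match. They were found by looking for that name, in any case, in the Swiss-Prot and Nr text of the deposited table, which holds 17030 unigenes. All 6 carried the name in Swiss-Prot and none (0) in Nr, where each was matched to a hypothetical protein of *P. ostreatus*. Mycelia of strain ACCC 50869 were grown in the dark at 25 °C for 37 days in bottles with 820 g of substrate. Immature mycelia were taken from 3 bottles at that point, day 0 of the maturation phase. Mature mycelia were taken from 3 other bottles after 35 further days in the dark at 17 °C. The groups carried no genetic change, and maturity, temperature and culture age changed together, so their effects cannot be told apart. Each of the 6 libraries stands for 1 bottle, and the 3 libraries of a stage were deposited under 1 sample entry.

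Carbonic anhydrase is a zinc enzyme that converts carbon dioxide and water into bicarbonate and a proton, and back. Bicarbonate is the substrate of carboxylases that feed the citric acid cycle, fatty acid synthesis and the synthesis of arginine and pyrimidines, and in several fungi it activates adenylate cyclase, the enzyme that makes the messenger cAMP. In the ascomycete *Sordaria macrospora* carbonic anhydrases take part in sexual development. Fungal carbonic anhydrases are mostly of the β-class, to which the named matches here, the enzymes of *Schizosaccharomyces pombe* and *Shigella flexneri*, also belong.

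Annotation that the name did not use was shared unevenly within the family. Of the 6 unigenes, 5 carried the GO terms for carbonate dehydratase activity and zinc ion binding, and 4 carried the KEGG number of carbonic anhydrase. DN4788_c0_g1 carried only the broad term for lyase activity. DN5673_c0_g1 and DN6982_c0_g1 shared the eggNOG group opiNOG36020. The other 4 unigenes, DN4788_c0_g1, DN5011_c0_g1, DN556_c0_g1 and DN5896_c0_g2, shared opiNOG29968 and COG0288. A further group, treNOG06740, joined DN556_c0_g1 with DN5673_c0_g1 and DN6982_c0_g1, so the groups do not divide the family in 1 way only. The Nr proteins of the 6 unigenes were all different. Those of DN4788_c0_g1 and DN556_c0_g1 had accession numbers that differed by 4, and the places of these genes in a genome were not analysed here. The unigenes were 508 to 2045 bases long, and DN556_c0_g1 was the shortest.

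Values are FPKM, fragments scaled by unigene length and library depth, so that levels of different unigenes are compared per length. Differences between the stages are log2 ratios of FPKM + 1, mature minus immature, from limma across 16496 unigenes with a mean FPKM above 1. All 6 carbonic anhydrase unigenes passed this filter, and none of their 36 values was 0. The study's thresholds were a p of 0.05 or less, not adjusted, and a log2 ratio of 1 or more in size. Adjusted p values are by Benjamini-Hochberg over all 16496 unigenes. For a single unigene, the exact permutation test (two-sided) can reach no p below 0.1 with 3 bottles in each group.

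FPKM summed to 1206304 to 1238506 per library, and fragment counts per unigene were not analysed here. On the first principal component of 11839 unigenes of at least 500 bases, which held 41.0% of the variance, mature bottle 1 scored 6.14, between the immature bottles at −27.2 to −16.0 and the other mature bottles at 26.6 and 29.3. It therefore stands apart from the other mature bottles. Names that held chitin synthase or glucan synthase, of the fungal cell wall, were found for 28 unigenes. Among them were an export chaperone and regulatory factors of chitin synthase, which are not synthases themselves. The summed FPKM of the 28 was 3176 to 3374 in immature and 3049 to 3130 in mature bottles. The 15 unigenes whose names held actin, tubulin, elongation factor 1-alpha or glyceraldehyde-3-phosphate dehydrogenase summed to 3613 to 4211 and 3930 to 4082 FPKM. Hydrophobins and fruiting body proteins coat aerial hyphae and fruiting bodies. Their 9 unigenes summed to 671 to 814 FPKM in immature and 551 to 570 FPKM in mature bottles. Of the 9 log2 ratios, 4 were positive and 5 negative. At the study's thresholds 1 unigene was higher and 1 was lower. Both, named after their values were seen, were matched to fruiting body protein SC3. The log2 ratio was 1.06 for DN5369_c0_g1 and −1.43 for DN6631_c0_g1. The most abundant, DN8573_c0_g1, named likewise, had 345 ± 85.3 and 192 ± 15.8 FPKM (SD, n = 3). The paper also reports DN5369_c0_g1 as higher in mature mycelia. None of these marker unigenes was at 0 in all libraries. The part of hydrophobin-rich hyphae in the results below was not tested.

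DN5673_c0_g1 was the predominant carbonic anhydrase of both stages. Its level was 417, 346 and 376 FPKM in immature bottles 1, 2 and 3 and 379, 348 and 351 FPKM in mature bottles 1, 2 and 3. All mature values lay within the immature range, and immature bottle 1 was the highest. The means were 380 ± 35.6 and 359 ± 16.9 FPKM (SD, n = 3), and the unigene ranked between 383 and 488 of the 17030 unigenes in each library. Its log2 ratio was −0.08 (SE 0.11, 95% interval −0.36 to 0.20, limma adjusted p = 0.770). A level higher in mature mycelia by more than 0.20, or lower by more than 0.36, on the log2 scale is outside this interval. The residual SD of its log2 values was 0.106, and 12.0% of the 853 tested unigenes within 2-fold of its mean level had a smaller one. The DN number of DN5673_c0_g1 was shared by 2 other unigenes, DN5673_c1_g1, matched to synaptojanin-2, and DN5673_c2_g1, without a Swiss-Prot name. Neither was past the study's thresholds.

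DN6982_c0_g1, the other member of opiNOG36020, was the next in abundance. It stood at 122, 130 and 139 FPKM in immature bottles 1, 2 and 3. The 3 mature bottles had 139, 100 and 102 FPKM in the same order. Mature bottle 1 lay at the top of the immature range, and mature bottles 2 and 3 lay below all immature bottles. The means were 130 ± 8.29 and 113 ± 21.8 FPKM (SD, n = 3). This gave a log2 ratio of −0.21 (SE 0.15, 95% interval −0.58 to 0.16, limma adjusted p = 0.537). Without mature bottle 1 it was −0.36 (SE 0.08, limma adjusted p = 0.154). Bulk RNA cannot tell fewer cells with a transcript from less transcript per cell, here or in the other unigenes.

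**Figure D1:**
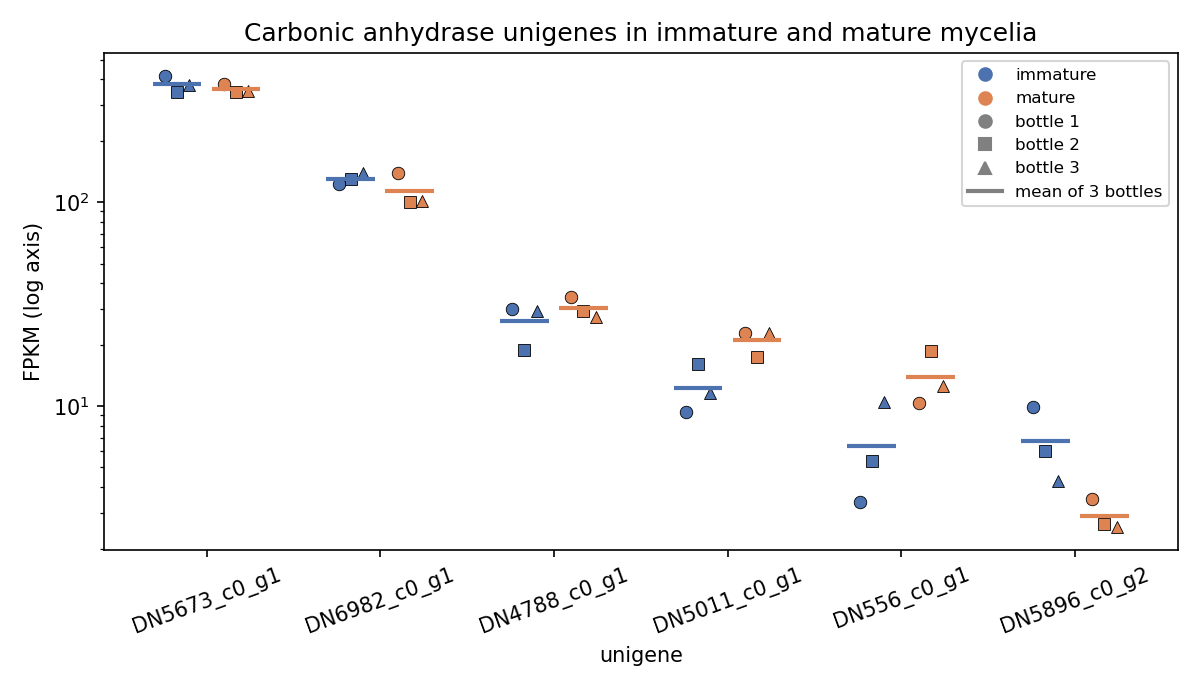
FPKM of the 6 carbonic anhydrase unigenes on a log axis, with 1 point for each of the 3 immature (blue) and 3 mature (orange) bottles and a line at the mean of each group. DN5673_c0_g1 lies at 346 to 417 FPKM in all bottles, and the groups are separate only for DN5011_c0_g1, higher in mature, and DN5896_c0_g2, lower in mature bottles.

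The 4 unigenes of opiNOG29968 were far less abundant. The log2 ratio of DN4788_c0_g1 was close in size to that of DN6982_c0_g1, and those of the others were larger. DN4788_c0_g1, matched to the *S. pombe* enzyme, had 29.98, 18.84 and 29.15 FPKM in immature bottles 1, 2 and 3. In mature bottles 1, 2 and 3 it had 34.27, 29.36 and 27.45 FPKM. The groups overlapped, since only immature bottle 2 lay apart from the rest. Mature and immature mycelia differed by a log2 ratio of 0.24 (SE 0.21, 95% interval −0.26 to 0.74, limma adjusted p = 0.608). Without immature bottle 2 it was 0.03, and without mature bottle 1 it was 0.15.

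DN5011_c0_g1, matched to the *S. flexneri* enzyme, stood at 9.36, 16.0 and 11.6 FPKM in immature bottles 1, 2 and 3. In mature bottles 1, 2 and 3 it stood at 22.8, 17.4 and 22.9 FPKM. Every mature bottle was above every immature bottle, although immature bottle 2 and mature bottle 2 were close. The means were 12.3 ± 3.39 and 21.0 ± 3.16 FPKM (SD, n = 3), a 1.71-fold difference. The difference was 0.75 on the log2 scale (SE 0.22, 95% interval 0.20 to 1.30, limma adjusted p = 0.226), short of the study's limit of 1, and the exact permutation test gave p = 0.1, the smallest it can give. It was 0.58 to 0.94 when 1 bottle was left out.

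DN556_c0_g1, matched to the *S. pombe* enzyme, was the only carbonic anhydrase past the study's thresholds. Its level was 3.39, 5.35 and 10.5 FPKM in immature bottles 1, 2 and 3 and 10.3, 18.6 and 12.6 FPKM in mature bottles 1, 2 and 3. Immature bottle 3 lay just above mature bottle 1, so the groups overlapped. The means were 6.40 ± 3.66 and 13.8 ± 4.26 FPKM (SD, n = 3), a 2.16-fold difference. In limma the log2 ratio was 1.08 (SE 0.40, 95% interval 0.09 to 2.06, limma adjusted p = 0.290), and the exact permutation test gave p = 0.2. Of 6 fits with a bottle omitted, 1 kept it past the study's thresholds, that without immature bottle 3, where the log2 ratio was 1.45. Without immature bottles 1 and 2 in turn it was 0.76 and 1.02, and without mature bottles 1, 2 and 3 in turn 1.25, 0.86 and 1.12, with unadjusted p values in limma of 0.0511 to 0.123. The study picked this unigene for RT-qPCR from its own comparison of these libraries, so its difference here is not independent evidence. The paper reports RT-qPCR patterns similar to RNA-seq for all the unigenes it picked, this one included. Those RT-qPCR values were not analysed here.

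The values of DN556_c0_g1 can be set beside the smallest ones of unigenes of like length. Among the 1231 unigenes within 10% of its length, the smallest values above 0 were 0.22 to 0.25 FPKM in the 6 libraries. Its own values were 13.6 times this smallest value in immature bottle 1 and 84.3 times in mature bottle 2. A further unigene of 296 bases, DN3559_c0_g3, was matched to the same Nr protein without a Swiss-Prot name. It was at 4.42 FPKM in immature bottle 1 and 3.16 FPKM in mature bottle 3 and listed at 0 in the other 4 libraries, so the division of reads between the pair is uncertain.

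DN5896_c0_g2, matched to the *S. flexneri* enzyme, went in the opposite direction. Immature bottles 1, 2 and 3 had 9.95, 5.99 and 4.28 FPKM, and mature bottles 1, 2 and 3 had 3.52, 2.65 and 2.54 FPKM. Every mature bottle was below every immature bottle, and the immature bottles were spread over a wider range than the mature bottles. The mature values were the lowest of the family. Among the 1199 unigenes within 10% of its length, the smallest values above 0 were 0.18 to 0.90 FPKM in the 6 libraries. The means were 6.74 ± 2.91 and 2.90 ± 0.537 FPKM (SD, n = 3), 2.32-fold lower in mature mycelia. On the log2 scale the ratio was −0.93 (SE 0.34, 95% interval −1.75 to −0.11, limma adjusted p = 0.279), and the exact permutation test gave p = 0.1, the smallest it can give. With a pseudocount of 0.1 in place of 1 FPKM it was −1.12 and past the study's thresholds. It was also past them without immature bottle 3 (−1.17) or mature bottle 1 (−1.04), and it was −0.65 without immature bottle 1.

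The DN number of DN5896_c0_g2 was shared by 7 other unigenes, none of them with a Swiss-Prot name. Only DN5896_c0_g1 and DN5896_c0_g3 also shared its c0 number, which with the DN number marks a Trinity read cluster. The most abundant of the 7, DN5896_c2_g3, is thus of another read cluster. It stood at 1302 to 2575 FPKM and was matched to the Nr protein whose accession number follows that of DN5896_c0_g2. Its log2 ratio was −0.05 (SE 0.31). The assembler groups transcripts that share sequence, so the division of reads among DN5896_c0_g2, DN5896_c0_g1 and DN5896_c0_g3 is uncertain. None (0) of the 7 was past the study's thresholds.

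**Figure D2:**
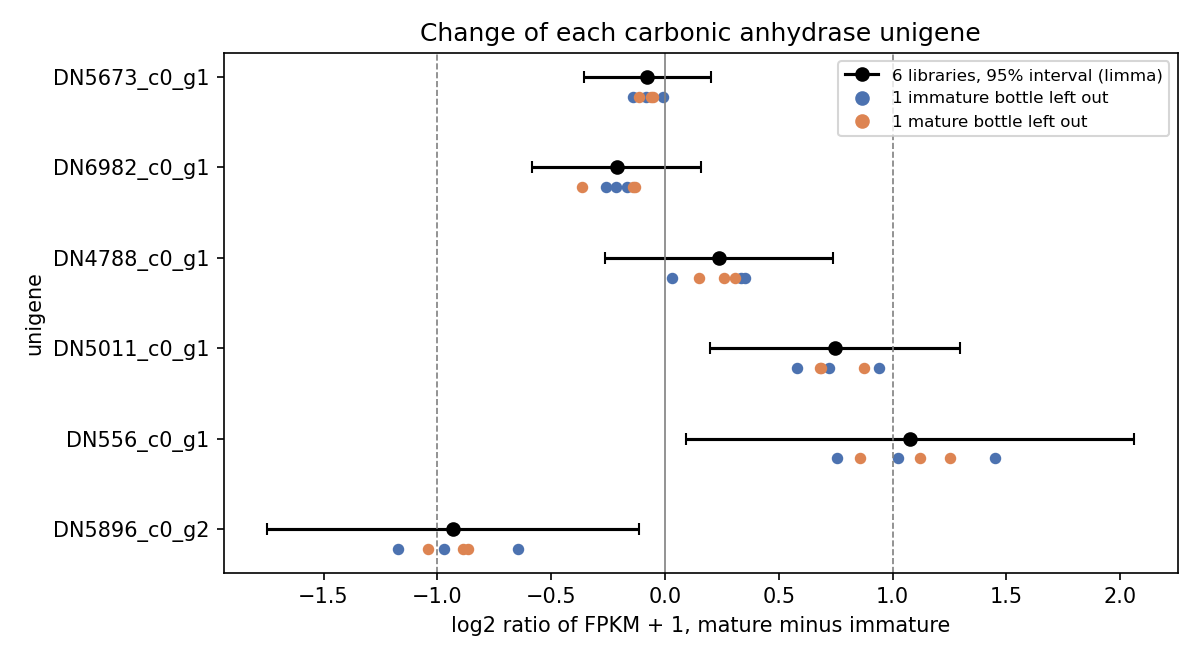
Log2 ratio of FPKM + 1 of each carbonic anhydrase unigene, mature minus immature, with the 95% interval from limma (black) and the values with 1 immature (blue) or 1 mature (orange) bottle left out. Dashed lines mark the study's limit of 1 in either direction. The intervals of DN5673_c0_g1, DN6982_c0_g1 and DN4788_c0_g1 include 0, and no unigene changes sign when a bottle is left out.

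In all, 1 of the 6 carbonic anhydrase unigenes was past the study's thresholds, higher in mature mycelia, where 3.01% of all tested unigenes were past them, 1.18% higher and 1.82% lower. Among tested unigenes of at least 500 bases, as all 6 are, 1.92% were past them. At an unadjusted p of at most 0.05 in limma, 2 were higher and 1 was lower, against 15.4% of all tested unigenes, 6.09% higher and 9.33% lower. None (0) had an adjusted p under 0.05, which 0.0667% of all tested unigenes had. Immature and mature bottles were fully separate for 2 of the 6 (33.3%), 1 in each direction, against 22.9% of all tested unigenes (8.69% higher, 14.2% lower) and 26.6% of those of at least 500 bases. The median log2 ratio was 0.08 over the 6 and −0.07 over all tested unigenes. With so few members these shares do not set the family apart from other unigenes.

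The order of the levels was the same at its upper end in all 6 libraries. DN5673_c0_g1 was 2.67 to 3.48 times as abundant per length as DN6982_c0_g1, which was 3.41 to 6.90 times as abundant as DN4788_c0_g1. DN4788_c0_g1 was above DN5011_c0_g1 in every library, although their ranges over the libraries overlapped. Among the remaining unigenes the order was not fixed. DN5011_c0_g1 exceeded DN556_c0_g1 in 5 of the 6 libraries, all but mature bottle 2. DN556_c0_g1 was above DN5896_c0_g2 in 1 of 3 immature and in 3 of 3 mature bottles. The ratio of that pair lay between 0.341 and 7.0, the widest relative to its size among neighbors in the order.

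The family as a whole was nearly even between the stages. The summed FPKM of the 6 unigenes was 592, 523 and 570 in immature and 588, 516 and 518 in mature bottles 1, 2 and 3. The ranges overlapped through mature bottle 1, since mature bottles 2 and 3 lay below all immature bottles. The means were 562 ± 35.7 and 541 ± 41.0 FPKM (SD, n = 3), a mature to immature ratio of 0.963. With 1 bottle left out this ratio was 0.921 to 0.990. DN5673_c0_g1 made up 67.6 ± 2.52% of this sum in immature and 66.5 ± 1.87% in mature mycelia. DN6982_c0_g1 made up 23.3 ± 2.30% and 20.9 ± 2.35%. No p value is given for sums or shares, since the members were chosen with earlier results of these data known.

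The share of the family sum held by the smaller remainder differed. The 4 unigenes of opiNOG29968 together held 8.89%, 8.84% and 9.72% of the family sum in immature bottles and 12.0%, 13.2% and 12.6% in mature bottles 1, 2 and 3. Their summed level was 46.2 to 55.5 FPKM in immature and 65.5 to 70.9 FPKM in mature bottles, with no overlap, mature bottle 1 included. Of single unigenes, 22.9% of all tested and 26.6% of those of at least 500 bases were without overlap. These shares are not a like baseline for a sum of 4 unigenes. DN5011_c0_g1 went from 2.22 ± 0.761% to 3.89 ± 0.526% of the family sum, DN556_c0_g1 from 1.14 ± 0.640% to 2.59 ± 0.932% and DN4788_c0_g1 from 4.59 ± 0.855% to 5.60 ± 0.276% (SD, n = 3). DN5896_c0_g2 went the other way, from 1.19 ± 0.466% to 0.534 ± 0.0570%. For DN556_c0_g1 the groups overlapped, with 1.84% in immature bottle 3 and 1.75% in mature bottle 1. All of these are shares of the family sum, and shares within the remainder were not analysed here. The eggNOG groups were used for this division after the values were seen.

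**Figure D3:**
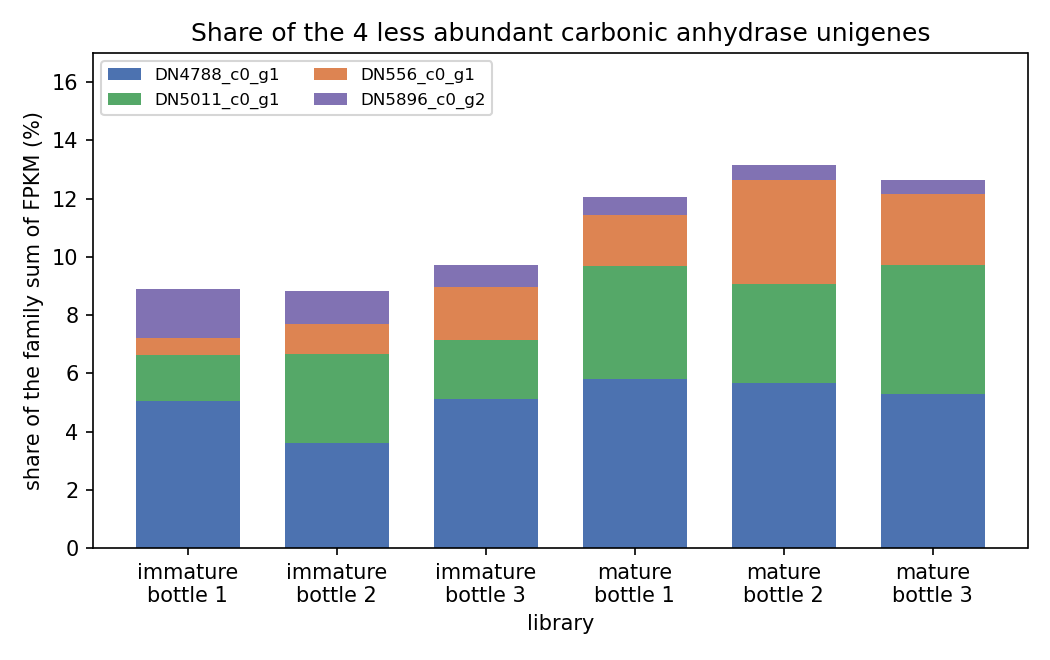
Share of the family sum of FPKM, in percent, held by the 4 unigenes of opiNOG29968 in each of the 6 libraries, stacked by unigene. The stacks reach 8.84 to 9.72% in immature and 12.0 to 13.2% in mature bottles, and the rest of each sum belongs to DN5673_c0_g1 and DN6982_c0_g1.

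A pair of further unigenes carried the term for carbonate dehydratase activity without the name. They were noticed after the values were seen and are not counted above. Both were matched to an uncharacterized protein of *Mycobacterium bovis*, shared opiNOG25937 and COG0288, and had Nr accession numbers that differed by 1. DN6476_c0_g1 ranged from 67.1 to 91.7 FPKM in immature and from 63.5 to 68.7 FPKM in mature bottles, which overlapped, with a log2 ratio of −0.26 (SE 0.13, limma adjusted p = 0.40). Its level per length lay between those of DN6982_c0_g1 and DN4788_c0_g1. DN2559_c0_g1 varied from 4.84 to 16.1 FPKM without a direction, with a log2 ratio of −0.09 (SE 0.48) that changed sign when immature bottle 1 or mature bottle 1 was left out and under quantile normalization.

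The unigenes whose values followed those of a carbonic anhydrase most closely over the 6 libraries were looked for among 5885 named unigenes of at least 500 bases and a mean of at least 5 FPKM. For DN5673_c0_g1 these were DN4066_c0_g1, matched to the transcriptional regulator prz1 (Pearson's r = 0.990), DN9001_c0_g1, matched to a striatin-interacting protein (0.986), and DN5317_c0_g1, matched to the phosphatidylinositol kinase FAB1 (0.985). For DN556_c0_g1 they were DN3408_c0_g3, matched to the plasma membrane fusion protein PRM1 (0.971), DN6686_c0_g2, matched to the multidrug transporter CDR1 (0.970), and DN5099_c1_g2, matched to the RNA helicase DBP7 (0.962). A value above 0.9 was reached by 90 and 34 unigenes, respectively. All points share the same 6 libraries, and these values are a description only.

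Enzymes that use bicarbonate were set beside the family, by protein names. None (0) of the 23 unigenes of bicarbonate-using carboxylases was past the study's thresholds, against 3.01% of all tested unigenes. At an unadjusted p of at most 0.05 in limma 1 was higher and 2 were lower, against 6.09% and 9.33% of all tested unigenes. Their median log2 ratio was 0.07. Pyruvate carboxylase, which makes oxaloacetate for the citric acid cycle, had the highest levels of this list. Its unigene DN3997_c0_g1 had 186 ± 4.89 and 212 ± 3.38 FPKM, and DN6849_c0_g1 had 172 ± 16.8 and 203 ± 14.5 FPKM (SD, n = 3). Their log2 ratios were 0.19 (SE 0.08, limma adjusted p = 0.346) and 0.24 (SE 0.11, limma adjusted p = 0.365). Not all pyruvate carboxylase unigenes were higher. DN6813_c0_g1 was at −0.17 (SE 0.09) and DN3997_c0_g2 at −0.01 (SE 0.12), both named after their values were seen. The unigene that was higher at the unadjusted p, named after its values were seen, was also a pyruvate carboxylase, DN6849_c0_g3, with 115 ± 1.73 and 164 ± 23.5 FPKM and a log2 ratio of 0.49 (SE 0.13, limma adjusted p = 0.190). Those that were lower, named likewise, were both matched to the beta chain of methylcrotonoyl-CoA carboxylase, an enzyme of leucine breakdown, DN6094_c0_g1 at −0.50 (SE 0.11) and DN6094_c0_g3 at −0.64 (SE 0.16).

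Of bicarbonate sensing and cAMP signaling 17 of 18 unigenes were tested, and none (0) was past the study's thresholds, against 3.01% of all tested unigenes. At an unadjusted p of at most 0.05 in limma 3 were higher and 2 were lower, against 6.09% and 9.33% of all tested unigenes. The median log2 ratio was 0.06. Of the 18, 13 were matched to G protein alpha subunits, 4 to cAMP-dependent protein kinase and 1 to adenylate cyclase. All 5 that passed the unadjusted p, named after their values were seen, were alpha subunits, DN8415_c1_g1 (0.75), DN8321_c0_g1 (0.47) and DN8637_c0_g1 (0.33) among the higher and DN8506_c0_g1 (−0.53) and DN7167_c0_g1 (−0.34) among the lower, as log2 ratios. The adenylate cyclase unigene DN8729_c0_g1 had a log2 ratio of −0.19 (SE 0.13). The most abundant of the list were both alpha subunits. DN2915_c0_g1 had 261 ± 10.3 and 254 ± 19.0 FPKM, and DN6977_c0_g1 had 164 ± 52.3 and 249 ± 56.0 FPKM (SD, n = 3).

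Among 10 unigenes of anion transport and aquaporins, 1 was past the study's thresholds, and it was higher, where 1.18% of all tested unigenes were past them and higher. With 10 unigenes a single call does not set the list apart. It was DN9119_c0_g2, matched to aquaporin-10, a channel for water and small solutes, which had 73.0, 48.2 and 60.8 FPKM in the 3 immature bottles and 95.3, 130 and 162 FPKM in the 3 mature ones. All mature bottles were above all immature bottles, and the log2 ratio was 1.07 (SE 0.24, limma adjusted p = 0.168). It was not past the thresholds without immature bottle 2 (0.91) or mature bottle 3 (0.89).

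Carbon dioxide is released by decarboxylases and by several dehydrogenases. Of the 62 unigenes of this list 3 (4.84%) were past the study's thresholds, all of them higher, against 3.01% of all tested unigenes, and the median log2 ratio was −0.09. Without mature bottle 1 the count was 7, but calls among all tested unigenes also rose, from 195 higher and 301 lower to 255 and 430. The 3 past the thresholds with all bottles were formate dehydrogenase DN6331_c0_g1, oxalate decarboxylase DN8634_c0_g1 and S-adenosylmethionine decarboxylase DN8007_c0_g2, an enzyme of polyamine synthesis. The first had a log2 ratio of 1.22 (SE 0.26, limma adjusted p = 0.161). For DN8634_c0_g1 it was 1.23 (SE 0.42, limma adjusted p = 0.267), but mature bottle 1 at 40.08 FPKM was level with immature bottle 1 at 40.04 FPKM. Without mature bottle 1 it was 1.69. The call was lost without immature bottle 2 or 3 or mature bottle 2 or 3 and with a replicate block. Unadjusted p values in limma were then 0.0621 to 0.10. The other unigenes matched to oxalate decarboxylase, named after their values were seen, had log2 ratios from −0.24 (DN107_c0_g1) to 0.18 (DN5993_c1_g1). DN8007_c0_g2, of 351 bases, had 6.15 ± 2.82 and 16.1 ± 3.51 FPKM (SD, n = 3) and a log2 ratio of 1.33 (SE 0.37, limma adjusted p = 0.212). The ratio was 0.94 with a pseudocount of 5 FPKM and 0.94 without immature bottle 1, short of the study's limit. DN8007_c0_g3, a longer unigene of 2861 bases with the same name and DN number, had a log2 ratio of only 0.25 (SE 0.17). It was named after its values were seen. At an unadjusted p of at most 0.05 in limma 8 of the list were higher and 9 were lower, against 6.09% and 9.33% of all tested unigenes. Of the 5 zinc transporter unigenes none (0) was past the study's thresholds, against 3.01% of all tested unigenes. At an unadjusted p of at most 0.05 in limma 2 were higher and none was lower, against 6.09% and 9.33% of all tested unigenes. Zinc-regulated transporter DN8758_c0_g2 had 184 ± 69.5 and 128 ± 114 FPKM (SD, n = 3), with mature bottle 1 at 256 FPKM and mature bottles 2 and 3 at 86.3 and 40.7 FPKM. Its log2 ratio was −0.86 (SE 0.67, limma adjusted p = 0.578), and −1.55 without mature bottle 1, where it was past the study's thresholds as the 1 unigene of this list. The zinc transporter ZIP9 match DN4459_c0_g1 had means of 65.3 ± 5.80 and 79.9 ± 3.61 FPKM, which differed by 0.29 on the log2 scale (SE 0.10, limma adjusted p = 0.270). The other that was higher at the unadjusted p, named after its values were seen, was DN1506_c0_g1, matched to the transporter cis4, at 0.26 (SE 0.09). No unigene of these 5 lists had an adjusted p under 0.05 in limma.

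**Figure D4:**
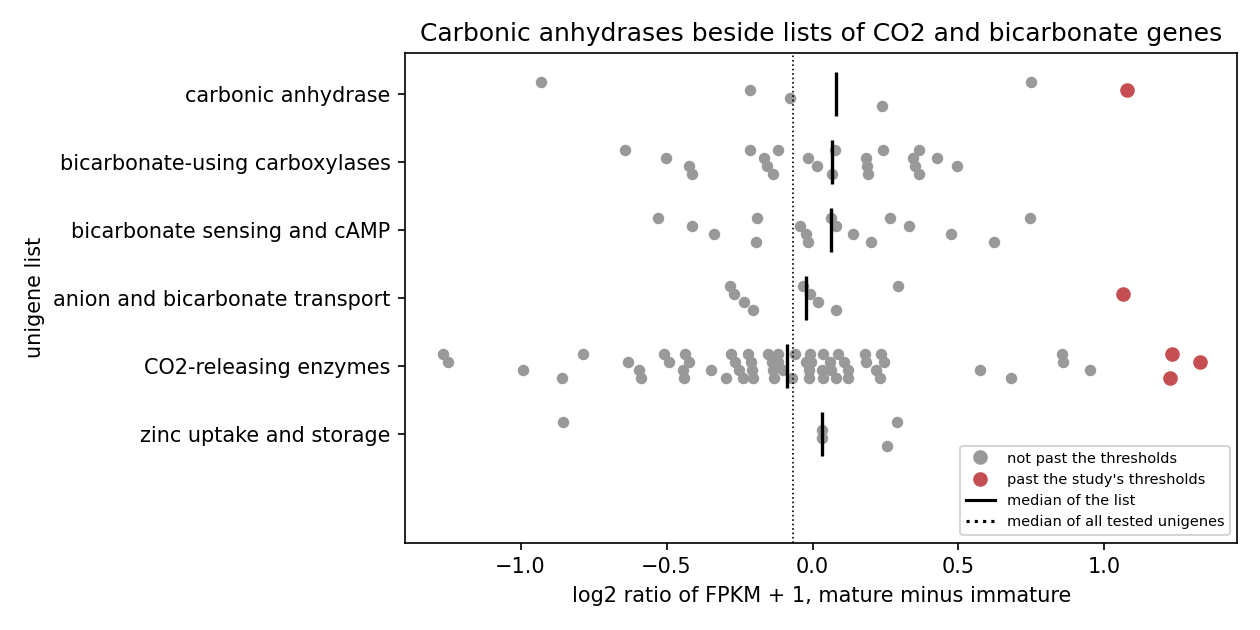
Log2 ratio of FPKM + 1, mature minus immature, of each tested unigene of the carbonic anhydrase family and of 5 lists formed by protein names, with red points past the study's thresholds, a line at the median of each list and a dotted line at the median of all tested unigenes. The medians lie between −0.09 and 0.08, and 1 carbonic anhydrase, 1 aquaporin and 3 enzymes that release carbon dioxide are past the thresholds, all higher in mature mycelia.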

How the data were processed

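RNA of 3 immature and 3 mature bottles was sequenced as paired ends. The authors cleaned reads with cutadapt, built contigs in Trinity, clustered these in TGICL, took 1 unigene, the longest isoform, per Trinity subcomponent and estimated abundance with RSEM. The deposited values are FPKM with 2 decimals, not scaled to a common sum, and fragment counts per unigene were not used here. The authors' DESeq2 comparison needs read counts, which were not used here. Columns were mapped to the stages by their names, which are the sample titles followed by a bottle number.

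Unigenes whose mean FPKM exceeded 1 were compared on log2(FPKM + 1) by limma (version 3.58.1, R version 4.3.3), two-sided, with a mean-variance trend and without covariates. Exact permutation tests used scipy 1.17.1 under Python 3.11.15, and matplotlib 3.10.9 made the figures. Lists were formed from words in Swiss-Prot names. Unigenes were named by a rule: all members, up to 4 of each list past the study's thresholds or else the 2 of highest mean FPKM. The rule also named the 3 most alike and neighbors by DN number or Nr protein. The adenylate cyclase and the unigenes with only the GO term were added after their values were seen. The members and lists were chosen with earlier results of these data known. Nucleotide and protein sequences of the unigenes were not analysed here. As alternatives, the pseudocount, the filter, the scaling and the variance prior were changed, unigenes under 500 bases were dropped, a replicate block was added and each bottle was left out.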

Additional observations from a re-analysis of the deposited data

How the results depend on the processing

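No carbonic anhydrase unigene changed sign under any alternative run. The log2 ratio of DN556_c0_g1 was 0.75 with a pseudocount of 5 FPKM, no longer past the study's thresholds, and 0.76 to 1.45 with 1 bottle left out. That of DN5896_c0_g2 was −1.12 with a pseudocount of 0.1 FPKM, then past them, and −1.17 to −0.65 with 1 bottle left out. The number of carbonic anhydrase unigenes past the thresholds was therefore 2 with the lower and 0 with the higher pseudocount, and 0 to 2 with 1 bottle left out. Without mature bottle 1 it was 1, DN5896_c0_g2 in place of DN556_c0_g1. DN5896_c0_g2 was not tested with a filter at a mean of 5 FPKM. The count over the 5 lists, 4 with all bottles, was 2 to 9 with 1 bottle left out (9 without mature bottle 1, 2 without mature bottle 3). Calls among all tested unigenes moved too. They were 255 higher and 430 lower without mature bottle 1, and 183 and 290 without mature bottle 3, against 195 and 301 with all bottles. Under quantile normalization the split of all calls at the study's thresholds was 247 higher and 228 lower, against 195 and 301, and the log2 ratio of DN2559_c0_g1 turned to 0.0081. With 1 bottle left out, the log2 ratios of 3 unigenes near 0 changed sign: DN2559_c0_g1 (−0.43 to 0.35), DN3559_c0_g3 (−0.81 to 0.69) and DN5896_c2_g3 (−0.38 to 0.11). The cause of these differences was not tested.

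As shares of FPKM times length, which follow fragments rather than transcripts, DN5673_c0_g1 held 52.3% in immature and 52.8% in mature mycelia, DN6982_c0_g1 38.2% and 35.1%, DN4788_c0_g1 5.66% and 7.07%, and DN556_c0_g1 0.465% and 1.09%. DN5011_c0_g1 held 1.75% and 3.15%, and DN5896_c0_g2 1.66% and 0.759%. With the pair of unigenes that carry only the GO term, an alternative added after seeing the data, the shares were 58.17% and 58.22% for DN5673_c0_g1, 20.02% and 18.28% for DN6982_c0_g1, and, in mature mycelia, 4.91% for DN4788_c0_g1 and 0.468% for DN5896_c0_g2.

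Bottles of the same number did not deviate together (r = −0.0894, −0.0431 and −0.00969 for numbers 1, 2 and 3). No library correlated best with the library of its own number in the other stage. With a replicate block, 188 unigenes were higher and 305 lower at the study's thresholds, against 195 and 301 without it, and none (0) against 11 had an adjusted p under 0.05. DN556_c0_g1 remained the 1 carbonic anhydrase past the study's thresholds in that fit, with the same log2 ratio of 1.08.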
